A study of Canis lupus familiaris with 77 samples.

Results

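The muscle miRNAs, often called myomiRs, are represented in the beagle dog atlas by 5 of its 650 detected miRNA rows, namely cfa-miR-1, cfa-miR-133a, hsa-miR-133a-5p, cfa-miR-133b and cfa-miR-206. They were chosen by name, as the rows whose name, without its suffix, is 1 of these 5. The rows cover the main arm of miR-1, both arms of miR-133a, the main arm of miR-133b and the main arm of miR-206. The prefix cfa marks an annotated dog miRNA, and hsa marks a locus found through the human sequence.

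Small RNA was sequenced (miR-seq) from 16 tissues of untreated, 10-month-old male beagle dogs that had been perfused with saline before organ collection, and no group carried a genetic change or an agent. The libraries used here number 76, namely 4 from colon, 2 from sciatic nerve and 5 from every remaining tissue. The 2 muscle tissues, heart and skeletal muscle (quadriceps), have 10 libraries together and the 14 other tissues have 66. The labels name neither the chamber of the heart nor the dog of a sample, so no libraries were paired. The study took the tissues from 5 dogs, so libraries of different tissues share donors although the tests treat them as separate. Replicate numbers follow the order of the sample records within a tissue and name a library alone, and colon replicate 4 was not analysed here. The p-values measure the spread between the samples of a tissue.

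As background, a miRNA is cut from a hairpin precursor, and its seed, a short stretch near the 5′ end, pairs with target mRNAs and lowers their output. The genes of miR-1 and miR-133 lie side by side and are switched on by the transcription factors of muscle development. miR-1 is known for promoting muscle differentiation, miR-133 for keeping myoblasts dividing and for restraining cardiac growth, and miR-206, which has the seed of miR-1, for its restriction to skeletal muscle and its role at the neuromuscular junction. In a dog gene annotation (RefSeq, assembly UU_Cfam_GSD_1.0, used for gene order alone) the neighbours were MIR1-1 with MIR133C, MIR1-2 with MIR133A, and MIR206 with MIR133B.

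Values are RPM, the reads of a miRNA scaled by the total of reads on miRNAs in the same library. RPM is a share of a library, so in whole tissue fewer cells of a type and less RNA per cell cannot be told apart. Depth ran from 157871 to 7896424 miRNA reads in a library. A count of 0 allows up to 3 reads, which corresponds to 0.380 RPM in the deepest and 19.0 RPM in the shallowest library, and this floor covers counting error only. The miR-133a row stands for the identical mature product of 2 genes, and miR-133a and miR-133b are near-identical. miR-1 and miR-206 share a seed and are less alike than that pair. Reads were aligned with no mismatch allowed. For miR-1 and miR-206 the counts limit how many reads of the former could have been counted as the latter, since heart had 53243 reads of miR-1 beside 11 of miR-206. How reads were divided between miR-133a and miR-133b could not be read from the counts, so values of miR-133b are uncertain to that extent.

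Skeletal muscle replicate 4 stood apart from the other 4 skeletal muscle libraries in all 5 miRNAs. It had 220445 reads in all, of which the 5 miRNAs took 0.0721%, against 3.89% to 11.5% in the other 4 libraries. The heart muscle list (miR-499, miR-208b and miR-208a) was low there too. miR-499 had 1 read, miR-208b had 2 reads and miR-208a had none, although miR-208a had no read in the other skeletal muscle libraries either. The summed level of the red blood cell list (miR-451, miR-144 and miR-486, all 3 detected) was 171907 RPM there and from 48482 to 106449 RPM in the other 4. Most of that sum was miR-486 at 167330 RPM, and miR-486 is also on the list of other muscle miRNAs used below. miR-451 at 4550 RPM lay above the others (453 to 3996 RPM), and miR-144 at 27.2 RPM lay within them (6.33 to 61.8 RPM). miR-122, a liver miRNA, stood at 36.3 RPM there and from 0 to 9.50 RPM in the others, while the smooth muscle list (miR-143 and miR-145) at 35315 RPM lay within their range of 25158 to 44202 RPM. The part of these levels in the low values was not tested. The sample was kept under its label. The skeletal muscle means and TE calls, the main contrast with heart and the ratios were read with and without it. Tissue orders, steps between neighbouring tissues and correlations over tissue medians include it throughout.

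miR-1 was far higher in heart and skeletal muscle than anywhere else. In heart it stood at 4702, 6365, 3164, 3544 and 4429 RPM in replicates 1 to 5, a mean of 4441 ± 1246 RPM (SD, n = 5). In skeletal muscle it stood at 1535, 3055, 2525, 9.07 and 1390 RPM, a mean of 1703 ± 1173 RPM (SD, n = 5), and of 2126 ± 799 RPM without replicate 4 (SD, n = 4). All 5 heart libraries lay above all 5 skeletal muscle libraries, by a narrow margin between heart replicate 3 and skeletal muscle replicate 2. The highest value outside muscle was 65.4 RPM in colon replicate 2, and the heart median was 67.7 times that value. The skeletal muscle median was 23.5 times that value, and 31.02 times without replicate 4. The reads of replicate 4 number 2, and its level lies among the non-muscle libraries, where the median was 5.04 RPM and 48 of 66 libraries had a read.

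miR-133a was the most abundant of the 5, and its median ranked 4 among all miRNAs in heart and again 4 in skeletal muscle. In heart it stood at 62730, 80340, 84760, 37107 and 96251 RPM, a mean of 72238 ± 23042 RPM (SD, n = 5). In skeletal muscle it stood at 58238, 108825, 98820, 676 and 36539 RPM, a mean of 60619 ± 44615 RPM (SD, n = 5), and of 75605 ± 34011 RPM without replicate 4 (SD, n = 4). The tissues overlapped, and the highest and the lowest values were both from skeletal muscle. Every non-muscle library had more than 3 reads of miR-133a, from 6.26 RPM in a pancreas library to 1917 RPM in sciatic nerve replicate 1, with a median of 168 RPM. The nerve library thus exceeded the 676 RPM (149 reads) of skeletal muscle replicate 4.

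miR-133a-5p, the other arm of the same hairpin, followed miR-133a at a far lower level. In heart it stood at 109.8, 133.2, 115.2, 70.2 and 138.3 RPM, a mean of 113.3 ± 26.9 RPM (SD, n = 5). In skeletal muscle it stood at 88.4, 182.9, 190.0, 0 and 57.0 RPM, a mean of 103.7 ± 82.0 RPM (SD, n = 5), and of 129.6 ± 67.0 RPM without replicate 4 (SD, n = 4). The tissues overlapped, with the highest 2 values in skeletal muscle. Outside muscle 13 of 66 libraries had more than 3 reads, and the highest level, 13.8 RPM in bone marrow replicate 5, rested on 3 reads.

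miR-133b, whose gene neighbours that of miR-206, had the second highest median of the 5 in skeletal muscle. There it stood at 2176, 2764, 3931, 31.8 and 684 RPM, a mean of 1917 ± 1574 RPM (SD, n = 5), and of 2389 ± 1350 RPM without replicate 4 (SD, n = 4). In heart it stood at 803, 1401, 1310, 597 and 1866 RPM, a mean of 1195 ± 504 RPM (SD, n = 5). Replicates 1 to 3 of skeletal muscle lay above all heart libraries, whereas replicate 5 lay within the heart range. Outside muscle the highest value was 44.3 RPM (43 reads) in sciatic nerve replicate 1, above the 31.8 RPM (7 reads) of skeletal muscle replicate 4.

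miR-206 was a skeletal muscle miRNA with almost no reads in heart. In skeletal muscle it stood at 395, 258, 817, 4.54 and 276 RPM, a mean of 350 ± 297 RPM (SD, n = 5), and of 436 ± 261 RPM without replicate 4 (SD, n = 4), which had 1 read. In heart it stood at 1.14, 0, 1.24, 0 and 0 RPM, from 9 reads in replicate 1 and 2 reads in replicate 3. All 5 skeletal muscle libraries lay above all 5 heart libraries. Over all libraries of a tissue, 2155 reads were counted in skeletal muscle and 11 in heart, although heart replicate 1 was the deepest library of the series. Outside muscle 14 of 66 libraries had a read and 4 had more than 3 reads.

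**Figure D1:**
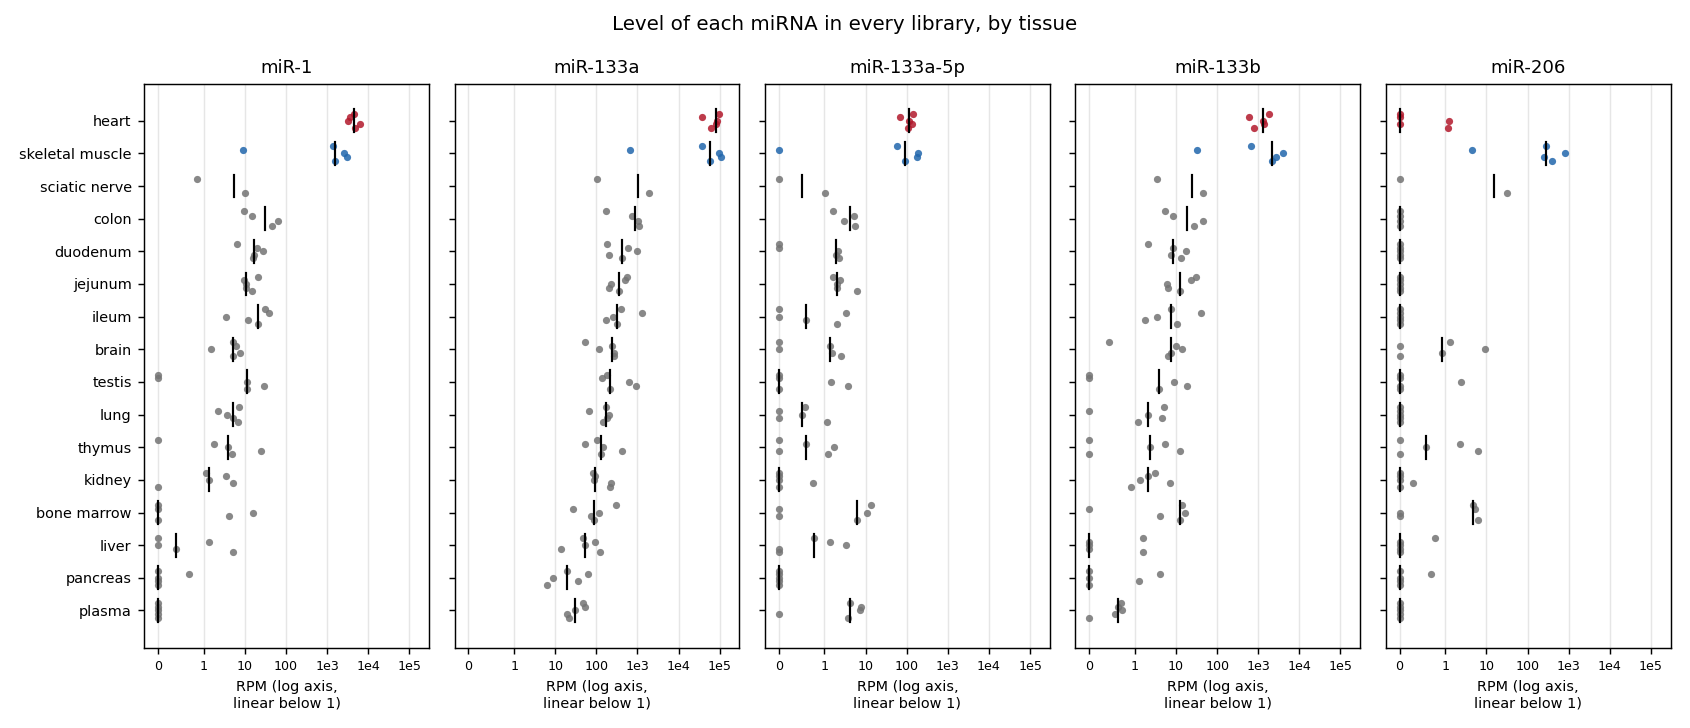
RPM of each of the 5 miRNAs (horizontal, log axis, linear below 1) in every library of 16 tissues (vertical). Points are libraries, heart in red, skeletal muscle in blue and other tissues in grey, and black bars are tissue medians. The muscle tissues stood apart for miR-1, miR-133a, miR-133a-5p and miR-133b, miR-206 did so in skeletal muscle alone, and 1 blue point, replicate 4, lay far to the left in every panel.

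Tissue enrichment (TE) was read with the limits that the study set. The tissue mean had to be over 5 times that of the remaining samples, with an adjusted rank-sum p under 0.05. The test used here was two-sided and exact, with Benjamini-Hochberg adjustment over all 650 miRNAs. Its calls did not all match those of the study, which reports no enriched miRNA in lung, kidney or duodenum. Duodenum had none here either, but 0.923% of all miRNAs were TE in lung and 0.769% in kidney. In heart 4 of the 5 miRNAs were TE, where 2% of all miRNAs were. The fold was 34.6 for miR-1 (4441 against 128 RPM, adjusted p = 2.35e-05), 16.0 for miR-133a (adjusted p = 7.04e-04), 12.6 for miR-133a-5p (adjusted p = 4.40e-04) and 8.41 for miR-133b (adjusted p = 0.00112), each by the exact rank-sum test. The other samples of this fold include skeletal muscle. Without skeletal muscle among them, the folds were 501, 261, 62.9 and 158. miR-206 stood at 0.477 RPM in heart on average against 25.7 RPM in the other samples and was not TE.

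In skeletal muscle 4 of the 5 were TE, where 1.38% of all miRNAs were. The fold was 334 for miR-206 (350 against 1.05 RPM, adjusted p = 0.00102), 21.02 for miR-133b (adjusted p = 0.00231), 11.3 for miR-133a (adjusted p = 0.00631) and 5.31 for miR-1 (adjusted p = 0.0346), each by the exact rank-sum test. miR-133a-5p reached a fold of 10.7 but missed the threshold (exact rank-sum test, adjusted p = 0.0782). The paper, by contrast, lists miR-133a-5p as TE in heart and in skeletal muscle alike. Without replicate 4 all 5 were TE, miR-133a-5p with a fold of 13.4 (exact rank-sum test, adjusted p = 0.00542), and the folds of the other 4 were 417, 26.2, 14.1 and 6.62 in the same order. The share of all miRNAs that were TE without replicate 4 was not taken, so the rise to 5 has no such share beside it. The call of miR-1 was close to both limits and was lost when any 1 of replicates 1, 2, 3 or 5 was left out, with folds from 4.25 to 5.55. None of the 5 was TE in any of the 14 other tissues, where TE took 29.1% of all miRNAs in brain, 8.15% in testis, 4.31% in plasma, 4.15% in pancreas, 3.08% in bone marrow, 1.38% in liver, 1.23% in jejunum, 0.923% in lung, 0.769% in kidney and in nerve, 0.308% in colon and in ileum, and 0% in duodenum and thymus.

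Whether the myomiRs differ between cardiac and skeletal muscle was tested in the counts with edgeR. Across the 5 and 5 libraries, 14.4% of 209 miRNAs differed, and none of the 4 members that passed the filter on low counts did. miR-206 did not pass it. The log2 difference, heart minus skeletal muscle, was 0.55 ± 0.86 (SE) for miR-1 (adjusted p = 0.670), -0.59 ± 0.84 for miR-133a (adjusted p = 0.647), -0.64 ± 0.70 for miR-133a-5p (adjusted p = 0.546) and -1.37 ± 0.77 for miR-133b (adjusted p = 0.269). None of the 4 reached an unadjusted p under 0.05 either, and DESeq2, which tested all 5, called 1, miR-206. These standard errors exceed those without replicate 4 for every member. The scaling moved the median of all miRNAs from -0.19 with TMM to 0.38 with library size alone, and the sign of miR-133a and of miR-133a-5p turned with it.

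Without skeletal muscle replicate 4, 2 of the 5 differed, where 17% of 235 miRNAs did. miR-206 was lower in heart by a log2 difference of -9.55 ± 0.54 (SE, adjusted p = 2.47e-07, edgeR), a value that depends on the prior count because 3 heart libraries held no read. Here miR-206 passed the filter on low counts through the skeletal muscle libraries alone, where it is high, so its call only describes its levels. miR-133b was lower in heart by -1.56 ± 0.32 (SE, adjusted p = 0.00749, edgeR), 597 to 1866 RPM in heart against 684 to 3931 RPM in the 4 libraries. The differences of the remaining 3 were 0.39 ± 0.36 for miR-1 (adjusted p = 0.470), -0.76 ± 0.33 for miR-133a (adjusted p = 0.132) and -0.82 ± 0.34 for miR-133a-5p (adjusted p = 0.115). With all 10 libraries and no filter on low counts, miR-206 differed as well, with an adjusted p = 3.98e-07 in edgeR.

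Ratios between the members within a library do not depend on the scaling. A library's log2 ratio of counts was taken with 0.5 added to each count, 5 ratios were compared by two-sided exact permutation tests of the mean difference, and the smallest p that 5 against 5 libraries can give is 0.00794. The ratio of miR-1 to miR-133a was higher in heart, where the mean log2 ratio was -3.99 ± 0.57 (SD, n = 5, range -4.74 to -3.39), than in skeletal muscle, where it was -5.26 ± 0.42 (SD, n = 5, range -5.90 to -4.71). This is a 2.41-fold difference (exact p = 0.0159, 0.0198 after Benjamini-Hochberg adjustment over the 5 ratios). The ranges overlapped, since heart replicate 3 lay just below skeletal muscle replicate 5. Without skeletal muscle replicate 4 the difference was 2.15-fold (exact p = 0.0238).

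The ratio of miR-133b to miR-133a was lower in heart, at -5.96 ± 0.22 (SD, n = 5, range -6.29 to -5.69), than in skeletal muscle, at -4.95 ± 0.56 (SD, n = 5, range -5.74 to -4.32). The difference was 2.01-fold (exact p = 0.0159, adjusted 0.0198), and 1.80-fold without replicate 4 (exact p = 0.0159). The ranges overlapped here too, between heart replicate 5 and skeletal muscle replicate 5. The arms of miR-133a kept nearly the same ratio in both tissues. The mean log2 ratio of miR-133a to miR-133a-5p was 9.27 ± 0.20 in heart and 9.02 ± 0.46 in skeletal muscle (SD, n = 5 each), and the difference of 0.26 was within the spread (exact p = 0.317). Without replicate 4, which had no 5p read, the difference was 0.06 (exact p = 0.635).

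miR-206 against its partners gave the widest separation. Heart had 11 reads of miR-206 beside 12004 of miR-133b and 53243 of miR-1, and skeletal muscle had 2155 beside 11207 and 8238. The mean log2 ratio of miR-206 to miR-133b was -10.23 ± 1.22 in heart and -2.35 ± 0.75 in skeletal muscle (SD, n = 5 each, exact p = 0.00794, adjusted 0.0198). That of miR-206 to miR-1 was -12.20 ± 0.94 in heart and -2.04 ± 1.03 in skeletal muscle (SD, n = 5 each, exact p = 0.00794, adjusted 0.0198). The groups did not overlap in either ratio, with and without replicate 4, and the heart values depend on the 0.5 added where no read was counted. Skeletal muscle replicate 4, low as its levels were, had a log2 ratio of miR-206 to miR-133b of -2.32, within those of the other 4 skeletal muscle libraries, on 1 and 7 reads. In the other 4 ratios it lay outside them. It stood at -0.74 for miR-206 to miR-1 (the others from -3.56 to -1.63), at -4.32 for miR-133b to miR-133a (the others from -5.74 to -4.65), at -5.90 for miR-1 to miR-133a (the others from -5.29 to -4.71) and at 8.22 for miR-133a to miR-133a-5p (the others from 9.02 to 9.36), with 2 reads of miR-1 and none of miR-133a-5p.

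**Figure D2:**
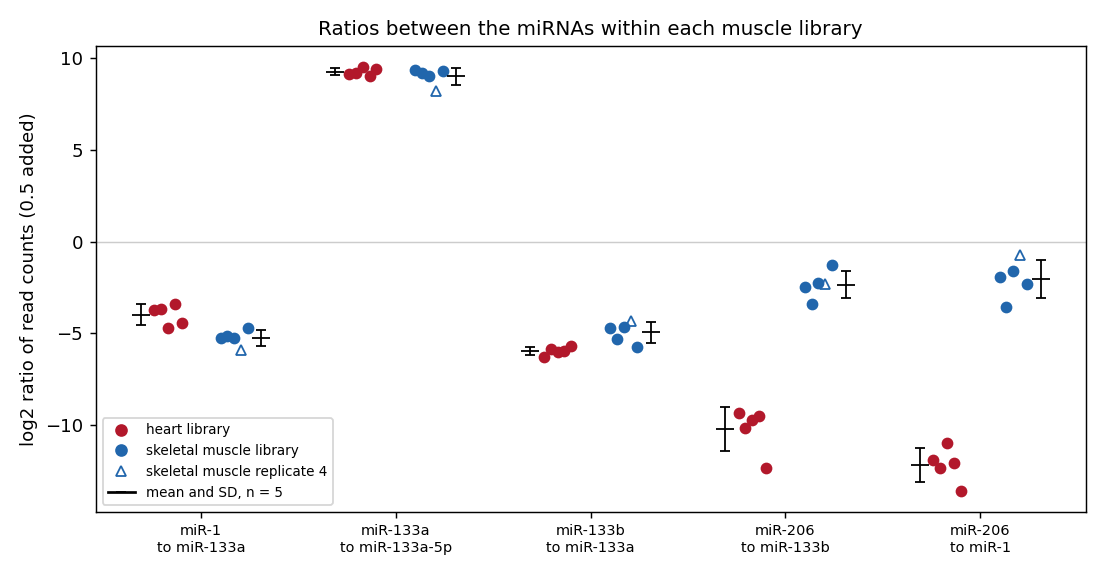
Log2 ratios of read counts (vertical, 0.5 added to each count) between pairs of the 5 miRNAs in the 5 heart libraries (red) and the 5 skeletal muscle libraries (blue, with replicate 4 as an open triangle). Black marks are the mean and SD. The ratios with miR-206 differed between heart and skeletal muscle by -7.88 and -10.16 log2 units, those of miR-1 and miR-133b to miR-133a by 1.27 and -1.01, and the arms of miR-133a did not separate them.

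The opposite arms of the other hairpins were rare. hsa-miR-1-5p was seen in all 5 heart libraries, from 2.66 to 19.6 RPM (56 reads in all), and in 4 skeletal muscle libraries (28 reads in all). In the other 14 tissues it had 5 reads, in 1 colon and 2 jejunum libraries. rno-miR-133b-5p, found through the rat sequence, had 6 reads in 2 skeletal muscle libraries and 1 read in brain.

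When the 16 tissues were put in order of their median RPM, most neighbours in that order were not told apart. Of the 75 neighbouring pairs of the 5 orders, 8 differed in edgeR (all tissues in 1 fit, adjusted p under 0.05). Each order was made from the medians of the miRNA itself, so its neighbours are close by construction. Over all miRNAs 36.3% of the tests in the same contrasts passed. That share is not a like comparison, since the tissues were not ordered by the medians of those miRNAs. For miR-1 the order ran heart (4429), skeletal muscle (1535), colon (30.8), ileum (20.9), duodenum (16.5), testis (11.3), jejunum (10.9), sciatic nerve (5.58), brain (5.21), lung (5.21), thymus (3.99), kidney (1.36) and liver (0.385), with medians of 0 in bone marrow, pancreas and plasma. The step from skeletal muscle to colon was the 1 that passed (adjusted p = 3.31e-07, edgeR).

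For miR-133a the order was heart (80340), skeletal muscle (58238), sciatic nerve (1011), colon (870), duodenum (415), jejunum (364), ileum (322), brain (234), testis (219), lung (167), thymus (131), kidney (92.2), bone marrow (86.3), liver (53.7), plasma (30.98) and pancreas (19.3). The step from skeletal muscle to nerve passed (adjusted p = 1.13e-04, edgeR). Brain differed from both its neighbours, being lower than ileum (adjusted p = 0.00206) and, against the order of the medians, lower than testis (adjusted p = 0.00933, edgeR). Both calls were lost when the fit used library size alone, with adjusted p of 0.0734 and 0.130.

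For miR-133a-5p the step from skeletal muscle (88.4) to bone marrow (6.16) passed (adjusted p = 4.49e-07, edgeR). For miR-133b, skeletal muscle (2176) and heart (1310) were followed by sciatic nerve (23.9), a step that passed (adjusted p = 3.58e-04, edgeR). Ileum (7.60) and brain (7.46) also differed (adjusted p = 0.0378, edgeR), a call that was lost with library size alone (adjusted p = 0.404). For miR-206 the step from skeletal muscle (276) to sciatic nerve (15.4) passed (adjusted p = 0.00136, edgeR), and no later neighbours were told apart. Colon, duodenum, ileum, jejunum, lung and plasma had no read of miR-206, so pairs among them could not differ.

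Outside muscle, 1 fit over the 66 libraries of the 14 tissues, with 473 miRNAs and all 5 members tested, set each tissue against the average of the remaining 13. Of the 70 combinations of a miRNA and a tissue, 21 were higher and 7 were lower. Over all 473 miRNAs, the share called higher ran from 13.7% in ileum to 50.3% in brain. The lower calls were in liver, pancreas and plasma, where 14.8%, 11.8% and 25.6% of all miRNAs were lower. The 21 and 7 are therefore not read as a trait of the members. The mean of the other tissues includes tissues with no read of miR-1, miR-133a-5p or miR-206, so the fitted size depends on the prior count for these 3. Their adjusted p comes from the same contrast and rests on those empty tissues too. It is therefore given beside reads or RPM and describes those counts. With libraries thinned to the smallest one, 5 combinations were called higher, and 12 were with DESeq2, without a share over all miRNAs to set beside them. Only miR-133a in colon and in duodenum was called higher under every other setting and with each library left out.

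The gut carried miR-1, miR-133a and miR-133b at low levels in all of its 19 libraries, and miR-206 in none. In colon all members but miR-206 were higher, where 16.9% of all miRNAs were. miR-1 stood at 47.0, 65.4, 14.7 and 9.75 RPM in the 4 colon libraries (adjusted p = 1.30e-08, edgeR), and miR-133a at 1066, 1017, 723 and 177 RPM, a log2 difference of 2.25 ± 0.45 (SE, adjusted p = 7.43e-05, edgeR). miR-133b stood at 27.7, 44.1, 8.40 and 5.34 RPM, a log2 difference of 2.36 ± 0.54 (SE, adjusted p = 6.49e-04, edgeR). In all 3 the last library, replicate 5, was lowest. miR-133a-5p stood at 5.47, 3.04, 5.25 and 1.63 RPM on 46 reads in all (adjusted p = 0.00282, edgeR).

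In the small intestine the calls were fewer. In duodenum 3 of the 5 were higher, where 21.8% of all miRNAs were. miR-1 stood at 15.8, 16.5, 27.4, 20.2 and 6.31 RPM there (adjusted p = 2.82e-06), and miR-133a at 415, 205, 1002, 593 and 186 RPM, a log2 difference of 2.05 ± 0.42 (SE, adjusted p = 9.00e-05, edgeR). miR-133b had a log2 difference of 1.50 ± 0.57 in duodenum (SE, adjusted p = 0.0429, edgeR), a call that held in 52 of 66 fits with 1 library left out. Replicate 3 of duodenum was highest for all 3. The duodenum libraries were unlike in their marker lists. From replicate 1 to 5, the gut epithelium list (miR-192, miR-194 and miR-215) summed to 327964, 521024, 23478, 5976 and 88623 RPM. The smooth muscle list summed to 136640, 85876.5, 615456, 412923 and 213351 RPM. The part of this makeup in the duodenum calls was not tested.

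In ileum 2 of the 5 were higher, where 13.7% of all miRNAs were. miR-1 stood at 20.9, 11.9, 3.50, 39.8 and 30.4 RPM (adjusted p = 1.08e-04, edgeR). miR-133a stood at 322, 168, 251.9, 1271 and 399 RPM (adjusted p = 0.0461, edgeR), and its log2 difference of 1.18 ± 0.45 (SE) fell to 0.21 without replicate 4, the highest library. In jejunum 2 of the 5 were higher, where 20.5% of all miRNAs were. miR-1 stood at 14.7, 10.9, 10.5, 9.64 and 20.9 RPM (adjusted p = 0.00317, edgeR) and miR-133b at 12.6, 6.45, 5.89, 23.5 and 30.5 RPM (adjusted p = 0.0124, edgeR).

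miR-143 and miR-145, the smooth muscle list, summed to 85876 to 615456 RPM in the 19 gut libraries (median 171054) and to 498 to 287874 RPM in the 47 other non-muscle libraries (median 39282), and both miRNAs had reads throughout the gut. Over the medians of the 14 non-muscle tissues, Pearson's r of log2(RPM + 1) with miR-143 was 0.84 for miR-1, 0.74 for miR-133a, 0.49 for miR-133b and -0.17 for miR-133a-5p. With miR-499 it was 0.16 for miR-1 and -0.03 for miR-133a. The points share libraries and depth, and these correlations are a description. The part of smooth muscle in the gut levels was not tested.

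Sciatic nerve rested on 2 libraries with unlike levels, and whether they came from separate dogs could not be settled from the sources used here. A pooled nerve sample of the same table matched no label and was not used. Replicate 1 had 1917 RPM of miR-133a (1862 reads), 44.3 RPM of miR-133b (43 reads), 30.9 RPM of miR-206 (30 reads) and 10.3 RPM of miR-1 (10 reads). Replicate 2, sequenced somewhat more deeply, had 104.8, 3.44, 0 and 0.859 RPM of the same 4. In nerve 3 of the 5 were called higher, where 32.3% of all miRNAs were, namely miR-133a (log2 difference 2.45 ± 0.59, SE, adjusted p = 4.67e-04), miR-133b (2.32 ± 0.74, adjusted p = 0.00827) and miR-206 (adjusted p = 2.38e-08, edgeR). The DESeq2 Wald test did not call miR-206 in nerve (adjusted p = 0.321), and in edgeR miR-206 passed the filter on low counts through a few libraries, since without brain replicate 3 it did not pass. Its call is therefore a description of nerve replicate 1. Without replicate 1 none of the 3 was called, and the log2 differences became -0.92 for miR-133a and -0.56 for miR-133b.

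In nerve replicate 1 the ratio of miR-206 to miR-1 was 3 by reads, whereas it was from 0.0844 to 0.324 in the 4 skeletal muscle libraries with more than 3 reads of each. The ratio of miR-1 to miR-133a was 0.00537, below every skeletal muscle ratio, the lowest of which was 0.0134 in replicate 4 (2 reads of miR-1) and 0.0256 in the other 4. miR-499, miR-208a and miR-208b summed to 15.4 RPM in replicate 1 and 11.2 RPM in replicate 2, and miR-122 stood at 104.0 and 13.7 RPM. The part of attached muscle or of reads from other libraries in the values of replicate 1 was not tested.

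miR-206 was also counted in single libraries of other tissues. Brain replicate 3 had 19 reads (9.33 RPM), beside 28 reads of miR-133b, the highest of the brain libraries, and 3 reads of miR-1, the lowest. The other brain libraries had 0 to 3 reads of miR-206. Brain was called higher for miR-206 (adjusted p = 3.14e-05, edgeR), where 50.3% of all miRNAs were. Without brain replicate 3, miR-206 did not pass the filter on low counts in this fit and was tested in no non-muscle tissue. The DESeq2 Wald test called miR-206 in none of the 5 tissues in which edgeR did, with adjusted p of 0.321 in nerve, 0.421 in brain, 0.501 in bone marrow, 0.707 in thymus and 0.737 in testis. The gut epithelium list (miR-192, miR-194 and miR-215) summed to 23995 RPM in that library and to 2637 to 3202 RPM in the other 4, and its part in the result was not tested.

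Thymus replicate 4 had 8 reads of miR-206 (2.34 RPM), and 2 other thymus libraries had 1 read each. The thymus call (adjusted p = 0.0246, edgeR), where 16.7% of all miRNAs were higher, was lost without replicate 4 (adjusted p = 0.274, edgeR). In testis all 5 reads of miR-206 were in replicate 3, and its call (adjusted p = 0.0301, edgeR) was lost without that library, where 33% of all miRNAs were higher in testis. miR-1 was also called in testis, at 11.3, 29.2, 11.3, 0 and 0 RPM (adjusted p = 0.0469, edgeR), and kept the call in 25 of 66 fits with 1 library left out. In bone marrow 3 libraries had 1 read of miR-206 each, at or below the floor of 3 reads in every library, so its call (adjusted p = 0.0324, edgeR, where 15.9% of all miRNAs were higher) rests on reads within the floor. The call of miR-133a-5p in bone marrow (adjusted p = 0.0359, edgeR) rests on 6 reads in 3 libraries and was lost without any 1 of them.

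Lung, kidney, liver and pancreas had traces and no member called higher, where 14%, 21.1%, 15.2% and 28.1% of all miRNAs were, and every fitted difference of the 5 in these 4 tissues was below 0. In lung miR-133a stood at 142, 182, 202, 67.0 and 167 RPM, and miR-1 at 2.27 to 7.36 RPM in all 5 libraries, with no read of miR-206. In thymus miR-133a stood at 131, 412, 143, 52.1 and 106 RPM, the highest value coming from the shallowest library of the series with 65 reads. miR-133a was lower in liver (13.9 to 120 RPM, log2 difference -1.85 ± 0.60, SE, adjusted p = 0.0133, edgeR), where 14.8% of all miRNAs were lower, and in pancreas (6.26 to 62.4 RPM, -2.54 ± 0.64, adjusted p = 9.61e-04, edgeR), where 11.8% were. miR-133b was lower in liver as well (adjusted p = 0.00900, edgeR), with 6 reads in 5 libraries, and miR-133a-5p in pancreas (adjusted p = 0.0245, edgeR), with no read in 5 libraries. No read there allows up to 1.24 RPM in the deepest and 4.44 RPM in the shallowest library, above the non-muscle median of 0.760 RPM. That call was lost without any 1 of kidney replicate 2, pancreas replicate 1, pancreas replicate 3 or nerve replicate 1. The liver call of miR-133a was lost without liver replicate 2.

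**Figure D3:**
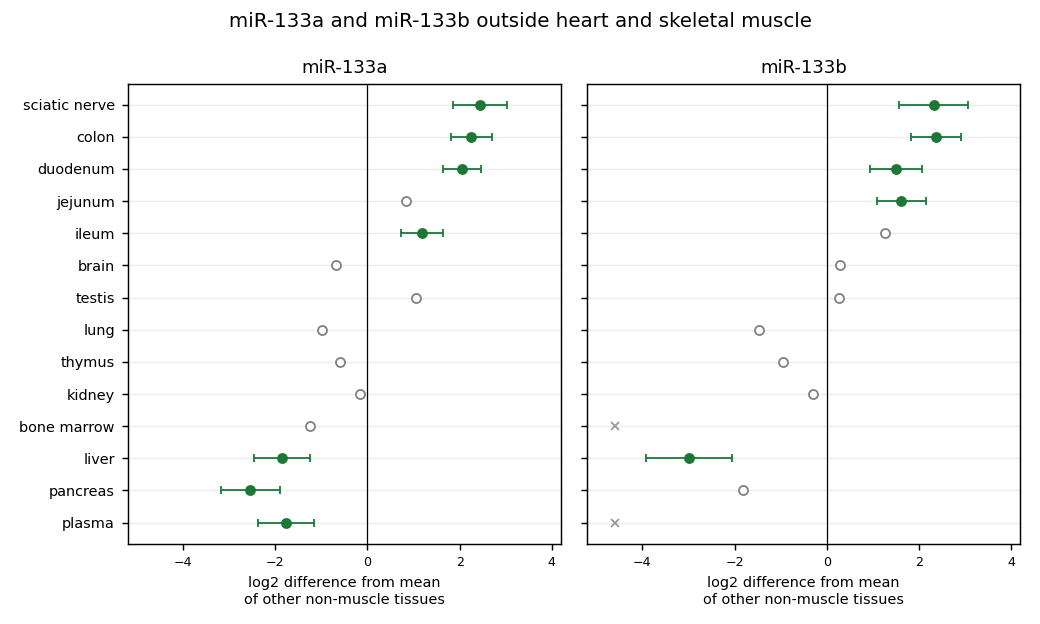
Fitted log2 difference (horizontal) of miR-133a and miR-133b in each of 14 non-muscle tissues (vertical) from the mean of the other 13, by edgeR. Filled green points with bars of 1 SE passed an adjusted p of 0.05, open points did not, and crosses mark tissues whose libraries all had 3 reads or fewer. Nerve, colon and duodenum lay to the right for both miRNAs, and liver, pancreas and plasma to the left for miR-133a.

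Plasma was the tissue in which the members parted. miR-1 and miR-206 had no read in any of the 5 plasma libraries, which allows up to 1.70 RPM in the deepest and 10.9 RPM in the shallowest. miR-133a stood at 21.8, 19.8, 30.98, 53.7 and 47.0 RPM and miR-133b had 4 reads in all. In plasma 3 of the 5 were lower, where 25.6% of all miRNAs were, namely miR-1 (adjusted p = 7.70e-04), miR-133a (log2 difference -1.77 ± 0.61, SE, adjusted p = 0.0108) and miR-133b (adjusted p = 0.0372, edgeR). The call of miR-1 was lost without pancreas replicate 4. That of miR-133b was lost without any 1 of brain replicate 1, plasma replicate 2, plasma replicate 4 or testis replicate 4. miR-133a-5p was higher (adjusted p = 2.20e-06, edgeR), where 27.9% of all miRNAs were, at 3.64, 0, 7.21, 7.66 and 4.15 RPM from 1, 0, 10, 12 and 6 reads.

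The share of the 5p arm among all miR-133a reads was highest in plasma. It was from 0.136% to 0.189% in heart (1344 of 823679 reads over 5 libraries) and from 0.152% to 0.192% in the 4 skeletal muscle libraries with 5p reads. In plasma it was 18.9% in replicate 3 (95% Wilson interval 10.6 to 31.4), 12.5% in replicate 4 (7.30 to 20.6) and 8.11% in replicate 5 (3.77 to 16.6). Plasma replicate 1 had 1 of 7 reads and replicate 2 had 0 of 35, an interval of 0 to 9.89% that also holds the heart values. Over all plasma libraries 29 of 265 reads (10.9%) were of the 5p arm, against 0.163% in heart and 0.547% in colon. Bone marrow came next with 6 of 129 reads (4.65%), and the pooled share of every remaining tissue was 0.912% or less.

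The red blood cell list summed to 543769 to 815725 RPM in plasma. Its part in the share of the 5p arm, and that of reads from other loci that match the human sequence, was not tested. The paper describes RNA isolations for plasma and for bone marrow that differ from that of the other tissues. It also reports low RNA integrity in both, and in part of the kidney samples. In the share of the 5p arm the isolation cannot be told apart from the tissue, and the part of RNA integrity was not tested. The intervals cover counting error alone.

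**Figure D4:**
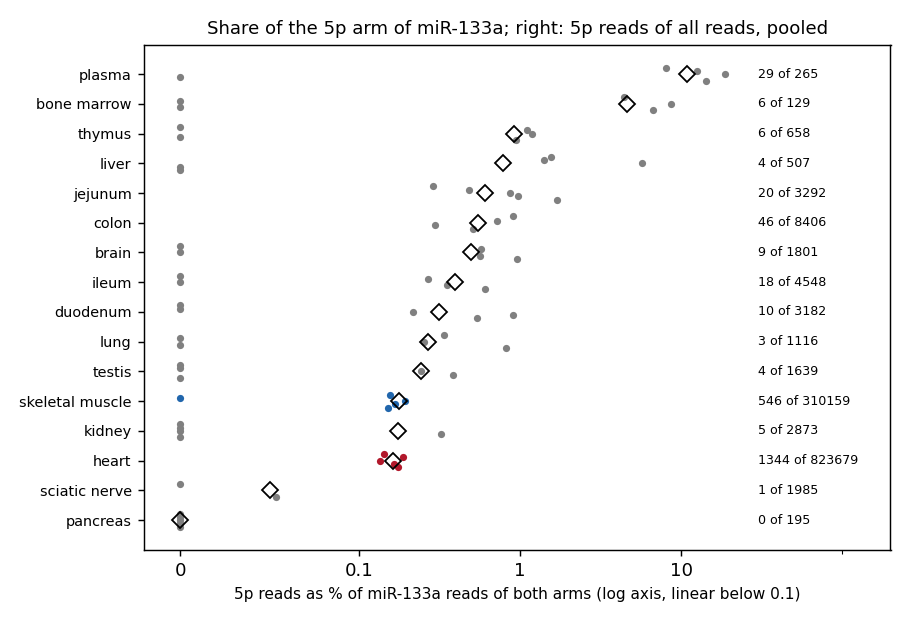
Reads of miR-133a-5p as a percentage of miR-133a reads of both arms (horizontal, log axis, linear below 0.1) in each tissue (vertical). Points are libraries, heart in red and skeletal muscle in blue, diamonds are the pooled share of a tissue, and the numbers at the right are the pooled reads. Plasma at 10.9% and bone marrow at 4.65% were the highest pooled shares, those of the 14 other tissues being 0.912% or less.

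Among 266 miRNAs with a tissue median above 100 RPM somewhere, the patterns most like those of the members over the 16 tissue medians were mostly each other's, with Pearson's r of log2(RPM + 1) as the measure. miR-133a and miR-133b had an r of 0.97, miR-133a and miR-1 of 0.97, and miR-1 and miR-133b of 0.92. The third place was taken by miR-208b for miR-1 (0.86) and miR-133a (0.85) and by miR-133a-5p for miR-133b (0.89). For miR-133a-5p the nearest were miR-133b (0.89), miR-208b (0.86) and miR-499 (0.84). miR-206 had no close match, with 0.63 for miR-133b, 0.53 for miR-133a and 0.52 for miR-184.

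For comparison, a list of 12 other miRNAs known from muscle was read in the same contrast of heart and skeletal muscle. Of the 11 that passed the filter 1 was higher in heart and none in skeletal muscle, where 4.78% and 9.57% of all miRNAs were, and the median log2 difference was -0.04 against -0.19 over all miRNAs tested. The 1 was miR-499, which is encoded within a cardiac and slow-fibre myosin gene. It stood at 3752, 4139, 2161, 1806 and 4465 RPM in heart and at 272, 593, 553, 4.54 and 69.7 RPM in skeletal muscle, with no overlap and a log2 difference of 2.82 ± 0.80 (SE, adjusted p = 0.0352, edgeR). Without skeletal muscle replicate 4 it differed by 2.59 ± 0.48 (SE, adjusted p = 0.00377, edgeR), and miR-30b was also higher in heart (1.09 ± 0.34, adjusted p = 0.0465), where 7.23% of all miRNAs were higher in heart and 9.79% in skeletal muscle.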

How the data were processed

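Small RNA of 16 tissues was measured by miR-seq. The authors removed adaptor sequence, used the OSA aligner with no mismatch allowed (genome CanFam3.1), and deposited counts of reads over miRNA loci known in dog or placed there from rat or human miRBase entries, with each sample's total and RPM, the count scaled by that total. Recomputed RPM differed by at most 2.89e-09 (relative), and counts summed to 0.0449% to 1.16% more than the total. Absent rows were set to 0. Samples were grouped by tissue label. A pooled sciatic nerve sample of the table (1 sample name) matched no label and was not used, and 1 labelled colon sample was not analysed here. Totals ran from 157871 to 7896424 reads. edgeR 4.0.16 (TMM, filterByExpr, quasi-likelihood, Benjamini-Hochberg, SE from the F statistic) compared tissues. Exact rank-sum and permutation tests used Python 3.11.15, scipy 1.17.1, numpy 2.4.6 and pandas 2.3.3. DESeq2 1.42.0 under R 4.3.3, scalings, filters, thinning and left-out libraries were alternatives. matplotlib 3.10.9 drew figures. Procedures were tested on simulated data. Named miRNAs are the 5 members, the 3 most alike of each, a list of other muscle miRNAs (those called), the cell type marker lists and, chosen after their values were seen, the opposite arms of the members. The members and lists were chosen with earlier results of these data known. A gene annotation of another assembly gave gene order alone. The Q-RT-PCR and dosing studies were not analysed here.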

Additional observations from a re-analysis of the deposited data

Results flagged for a closer look

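A library was singled out when its gap to the nearest library, as a share of the range of the tissue, exceeded Dixon's 95% limit on log2(RPM + 1). Of 54 combinations of a miRNA and a tissue, 9 were. The limit stands for about 1 in 20 with normal values. Where all other libraries of a tissue have no read a flag is certain, so the count is not set against that rate. Skeletal muscle replicate 4 accounts for 4 of them, as the lowest library for miR-1 (9.07 RPM), miR-133a (675.9 RPM), miR-133a-5p (0 RPM) and miR-206 (4.54 RPM).

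Brain replicate 3 was the lowest brain library for miR-1 (1.47 RPM, 3 reads). For miR-133a-5p, jejunum replicate 1 was highest at 6.31 RPM on 3 reads, kidney replicate 2 was the only kidney library with reads (0.748 RPM, 5 reads) and plasma replicate 2 was lowest with 0 RPM. Testis replicate 3 was the only testis library with reads of miR-206 (2.47 RPM, 5 reads). No cause of these values was tested.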

How the results depend on the processing

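No paired analysis was run because the labels carry neither dog nor replicate numbers, although the tissues share their donors. Whether the order of the sample records follows the dogs was not tested. Thinning to the smallest library lowered the count of members called higher outside muscle from 21 to 5, and the DESeq2 Wald test to 12. It was 16 to 23 with single libraries left out. No share over all miRNAs was taken under these settings. Between heart and skeletal muscle 0 members differed, and 1 (miR-206) did without the filter on low counts, with the DESeq2 Wald test and with all 16 tissues in the fit, since the filter had removed it. With single libraries left out the count was 0 to 2. The exact rank-sum test on RPM called 0 of 514 miRNAs at 5 against 5, where miR-1 and miR-206 had the smallest possible unadjusted exact p of 0.00794. That p became 0.105 after adjustment in this test. The test thus could not call either miRNA, however far apart the tissues were. The log2 difference of miR-133a turned to 0.25 with library size alone, to 0.24 with the members left out of the library sizes and to 0.25 by mean RPM, and that of miR-133a-5p to 0.11, 0.0898 and 0.13. With single libraries left out, the nerve differences ran from -0.92 to 3.40 (miR-133a), -0.56 to 3.22 (miR-133b) and -1.71 to 6.94 (miR-206), the lowest without nerve replicate 1, and that of miR-206 in testis from -1.96 (without replicate 3) to 2.35. The values of miR-206 depend on the prior count. Leaving out single heart or skeletal muscle libraries kept 4 TE members in heart and gave 3 to 5 in skeletal muscle. The share of all miRNAs that were TE was not taken for these fits. The 5 ratios kept their direction and side of the threshold under both other settings and every left-out library. Of the neighbouring pairs, 67 to 69 were not told apart under the settings tried. Depth limits miR-206, miR-1 and miR-133a-5p outside muscle.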
